A study of Mus musculus with 12 samples.

Results

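The genes described here are 10 markers of amacrine and horizontal cells, the inhibitory interneurons of the retina. They are Gad1, Gad2, Slc32a1, Slc6a9, Tfap2a, Tfap2b, Chat, Th, Calb1 and Lhx1, taken by symbol from tables of 25655 genes, and all 10 were measured. They were followed in bulk RNA-seq of whole retinas 2 days after optic nerve crush (ONC), an injury that severs the axons of retinal ganglion cells (RGCs). C57BL/6J mice (strain label C57BL/6) of 8 to 10 weeks, wild type in every group, had the optic nerve of the left eye crushed and were then given 1 intravitreal injection of PBS, fluvastatin, MBV or both agents. Fluvastatin is a statin, an inhibitor of the enzyme that makes mevalonate for cholesterol synthesis. MBV are matrix-bound nanovesicles, membrane vesicles held in the extracellular matrix, here from porcine urinary bladder. Each of the 4 groups had 3 libraries. The count columns of the combined treatment carry no library or group name, so that group was not analysed here, and the values below are from 9 libraries in 3 groups. The PBS retinas were crushed too, and no uninjured retina was among the groups compared, so every difference below is between treatments of injured retinas and none shows what the crush did. Whether a library came from 1 retina or from several was not given in the sources used here.

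Amacrine cells sit between bipolar cells and RGCs and shape the signal that RGCs send to the brain, while horizontal cells give inhibitory feedback to photoreceptors in the outer retina. Most amacrine cells release either GABA or glycine, and small subsets also release acetylcholine (the starburst cells) or dopamine. Because amacrine cells lie next to RGCs and do not send axons through the optic nerve, their genes are a common measure of whether the rest of the inner retina is altered when RGCs are injured.

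The 9 libraries had 21349516 to 30992040 counts on genes, and the members had 40 to 7712 counts each, so that none was near 0. Levels are CPM, the counts of a gene relative to all counts on genes in its library, scaled by TMM factors, and differences are log2 fold changes tested with edgeR's quasi-likelihood test and called at a false discovery rate (FDR, Benjamini-Hochberg adjustment over all genes tested) under 0.05. The libraries carry numbers in 2 sets, 1 holding PBS and the other holding fluvastatin and MBV. A difference from PBS therefore cannot be told apart from a difference between the sets, and the fluvastatin and MBV comparisons share the same PBS libraries. The median test statistic over all genes, divided by its value where no gene differs (the inflation), was 3.98 for fluvastatin against PBS, 4.90 for MBV against PBS and 1.82 for MBV against fluvastatin.

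Few of the 10 genes were called between treatments, and the called differences were 1.13 to 1.21 fold. Against PBS, 2 of 10 were higher with fluvastatin, Slc6a9 and Tfap2a, and none was called lower, where 19.6% of all genes tested were called. With MBV, 1 of 10 was higher, Slc6a9, where 26.1% of all genes were called. Between MBV and fluvastatin, in the same set, 0 of 10 were called by edgeR or DESeq2 and 0 had an unadjusted p under 0.05, where 0.0588% of all genes were called. Counted in either direction, these shares of members called lie near or under those of all genes. The median log2 fold change of the 10 genes was 0.086 for fluvastatin, 0.09 for MBV and -0.011 for MBV against fluvastatin, beside -0.0072, 0.0095 and 0.011 over all genes tested. In RNA of a whole retina, fewer cells of a type and less RNA per cell cannot be told apart.

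**Figure D1:**
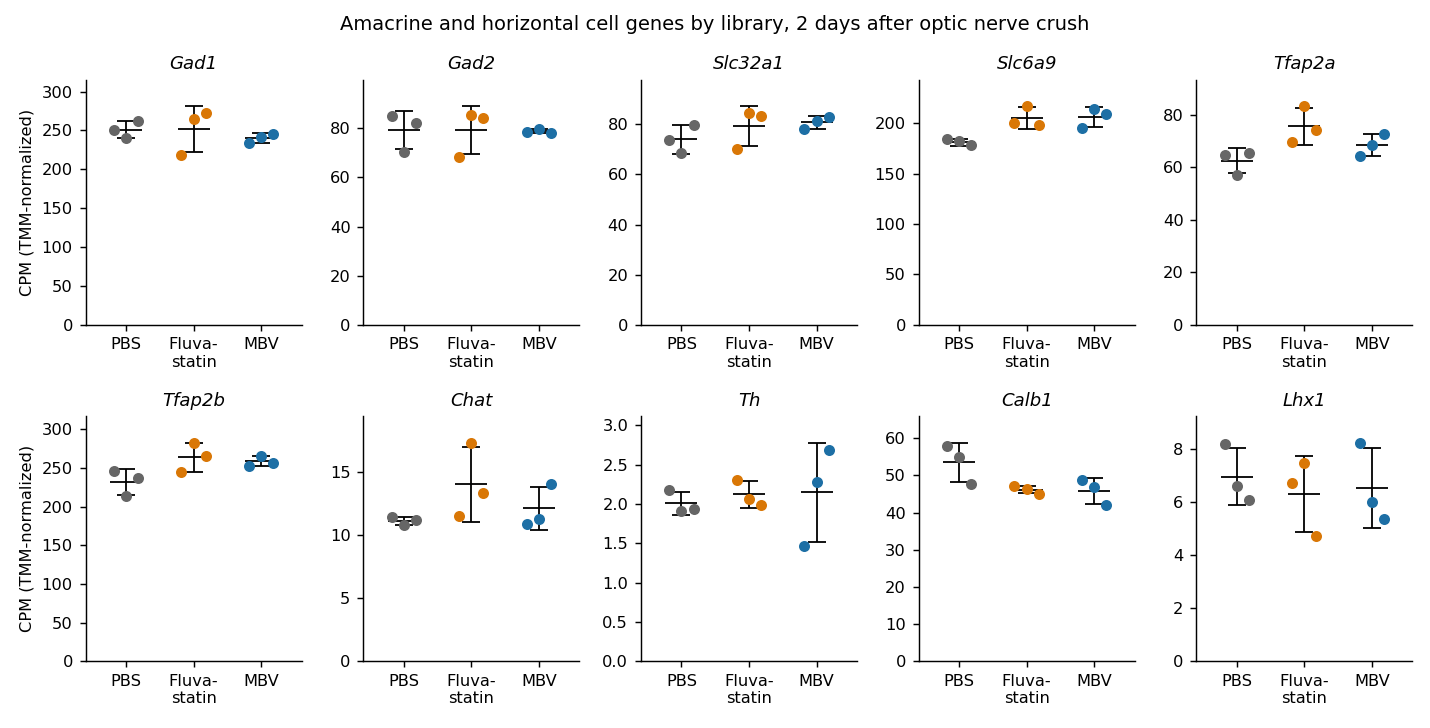
Level of each of the 10 genes (vertical axis, TMM-normalized CPM, from 0) in the 3 PBS, 3 fluvastatin and 3 MBV libraries; points are libraries, the long bar is the mean and the whiskers are 1 SD. Slc6a9 shows every treated library (195 to 217 CPM) above every PBS library (178 to 184 CPM), whereas Gad1 and Gad2 overlap between all groups.

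Gad1 and Gad2 encode the 2 forms of glutamate decarboxylase, the enzyme that makes GABA from glutamate, and lie on chromosome 2 of GRCm39 at 2:70383416-70432358 and 2:22512217-22583886, both on the plus strand. The most alike 75-base stretches of their coding sequences, as long as a read, are printed to show how far reads of the pair can be told apart, with the differing bases in capitals (GRCm39 at 2:70425003-70425077 and 2:22571335-22571409, plus strand, each within 1 exon).

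Gad1: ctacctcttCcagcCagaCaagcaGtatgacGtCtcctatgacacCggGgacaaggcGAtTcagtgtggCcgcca

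Gad2: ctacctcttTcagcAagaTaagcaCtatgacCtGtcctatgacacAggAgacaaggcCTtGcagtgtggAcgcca

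These windows differ at 12 of 75 bases, and the longest coding run that the genes share is 17 bases. Gad1 had 251, 240 and 262 CPM in the PBS libraries, 218, 265 and 272 CPM with fluvastatin, and 234, 242 and 246 CPM with MBV. The range of the fluvastatin libraries held all the others. Gad1 differed from PBS by a log2 fold change of 0.0054 with fluvastatin (SE 0.0744, 95% interval -0.16 to 0.17, edgeR FDR 0.967) and of -0.072 with MBV (SE 0.0436, interval -0.17 to 0.027, edgeR FDR 0.269). Gad2 had 85.1, 70.4 and 82.4 CPM with PBS, 68.2, 85.6 and 84.4 CPM with fluvastatin, and 78.5, 79.7 and 78.1 CPM with MBV. Here the MBV libraries were the most alike, all lying inside the PBS range. The log2 fold change of Gad2 was 0.0012 with fluvastatin (SE 0.0928, interval -0.2 to 0.21, edgeR FDR 0.993) and -0.019 with MBV (SE 0.0672, interval -0.17 to 0.13, edgeR FDR 0.862). The intervals leave changes of Gad1 of 0.895 to 1.13 fold and of Gad2 of 0.868 to 1.15 fold with fluvastatin. The sign of the Gad2 value turned when libraries were scaled by total counts, at values close to 0.

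Slc32a1 (2:158452687-158457668, plus strand) encodes VGAT, the transporter that loads GABA and glycine into synaptic vesicles and so marks both kinds of inhibitory amacrine cell. It had 73.6, 68.6 and 79.9 CPM with PBS, 70.0, 84.5 and 83.3 CPM with fluvastatin, and 78.1, 81.5 and 83.1 CPM with MBV. The groups overlapped in every comparison. Its log2 fold change was 0.098 with fluvastatin (SE 0.0783, edgeR FDR 0.429) and 0.12 with MBV (SE 0.0588, interval -0.014 to 0.25, edgeR FDR 0.176), neither past the threshold. When scaled by total counts alone, the 3 MBV libraries lay above the PBS libraries.

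Slc6a9 (4:117691703-117732395, plus strand) encodes GlyT1, the glycine transporter of glycinergic amacrine cells and of glia, and was the gene called in both comparisons with PBS. Its levels were 184, 182 and 178 CPM in the PBS libraries, 200, 217 and 198 CPM with fluvastatin, and 195, 214 and 209 CPM with MBV. The PBS libraries were the least spread of any member in that group (coefficient of variation 1.86%), and all 6 treated libraries lay above them. Slc6a9 was 1.13-fold higher with fluvastatin (log2 fold change 0.18, SE 0.047, interval 0.074 to 0.28, edgeR FDR 0.0244) and 1.13-fold higher with MBV (log2 fold change 0.18, SE 0.046, interval 0.072 to 0.28, edgeR FDR 0.0221). MBV and fluvastatin differed by a log2 fold change of 0.0058 (interval -0.12 to 0.13). The call with fluvastatin was lost without fluvastatin replicate 2 (FDR 0.0846) and without PBS replicate 1 (0.0731), 2 (0.0593) or 3 (0.0663), and the call with MBV without MBV replicate 2 (0.0687) and without PBS replicate 1 (0.0729), 2 (0.0543) or 3 (0.0654). Dividing the test statistics by their inflation gave FDRs of 0.961 and 0.962.

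The count of Slc6a9 is uncertain because its exons overlap those of 2 genes on the opposite strand, Ccdc24 by 1429 bases and B4galt2 by 551 bases. Of the 75-base windows in its transcripts, 1712 of 7055 (24.3%) also occur in these genes, read from either strand, and whether the authors counted by strand was not given in the sources used here. Ccdc24, which encodes a coiled-coil protein, had 142 to 189 CPM with PBS, 150 to 195 CPM with fluvastatin and 139 to 215 CPM with MBV, with overlapping groups and log2 fold changes of 0.007 and 0.1. B4galt2, a galactosyltransferase gene, had 52.7 to 64.9 CPM with PBS, 62.5 to 78.6 CPM with fluvastatin and 67.6 to 84.3 CPM with MBV. Its log2 fold changes of 0.26 (edgeR FDR 0.0731) and 0.3 (edgeR FDR 0.0527) had the sign of those of Slc6a9, and the part of reads from either neighbour in the Slc6a9 counts was not tested. Marker genes of Müller glia, the retinal glia, moved in these comparisons too, as given further on.

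Tfap2a and Tfap2b encode the AP-2 alpha and AP-2 beta transcription factors, which most amacrine cells and horizontal cells carry from development on. Tfap2a lies at 13:40868778-40891852 on the minus strand and Tfap2b at 1:19279138-19308800 on the plus strand. Their most alike 75-base coding windows are shown for the same reason, with differing bases in capitals (GRCm39 at 13:40870668-40870742, minus strand, and 1:19304411-19304485, plus strand, each within 1 exon).

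Tfap2a: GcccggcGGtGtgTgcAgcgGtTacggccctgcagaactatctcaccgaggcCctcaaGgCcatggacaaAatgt

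Tfap2b: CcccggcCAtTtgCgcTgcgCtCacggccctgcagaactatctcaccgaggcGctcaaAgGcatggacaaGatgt

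The windows differ at 12 of 75 bases, with a shared run of 29 bases, and no 75-base window of either gene occurred in the transcripts of another gene of the tables. Tfap2a had 64.9, 57.2 and 65.5 CPM with PBS, 69.6, 83.4 and 74.2 CPM with fluvastatin, and 64.4, 68.5 and 72.8 CPM with MBV. All 3 fluvastatin libraries lay above the PBS libraries, while those of MBV overlapped them. Tfap2a was 1.21-fold higher with fluvastatin (log2 fold change 0.27, SE 0.0745, interval 0.11 to 0.44, edgeR FDR 0.027), the largest called change among the members. With MBV the log2 fold change was 0.12 (SE 0.0657, interval -0.026 to 0.27, edgeR FDR 0.21), and the difference of MBV from fluvastatin, -0.14 (interval -0.31 to 0.022, edgeR FDR 0.522), did not pass the test. The call with fluvastatin was lost without fluvastatin replicate 2 (FDR 0.112) or 3 (0.0571), without PBS replicate 1 (0.0661) or 2 (0.0967), and when divided by the inflation (0.961).

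Tfap2b had 246, 214 and 237 CPM with PBS, 245, 282 and 266 CPM with fluvastatin, and 253, 266 and 256 CPM with MBV. The lowest fluvastatin library fell just under the highest PBS library, and the MBV libraries were all above it. It differed from PBS by a log2 fold change of 0.18 with fluvastatin (SE 0.0623, interval 0.045 to 0.32, edgeR FDR 0.0649) and 0.14 with MBV (SE 0.0533, interval 0.023 to 0.26, edgeR FDR 0.0783), both short of the threshold. The DESeq2 test called it with fluvastatin (FDR 0.0304), as did edgeR without fluvastatin replicate 1 (FDR 0.00979), and scaling by total counts called it with MBV (FDR 0.0497). Over the fits without 1 library the fluvastatin value ran from 0.13 to 0.24, with edgeR FDRs of 0.00979 to 0.239. The MBV value ran from 0.093 to 0.19 and was called in none of these fits (edgeR FDR 0.0635 to 0.211).

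**Figure D2:**
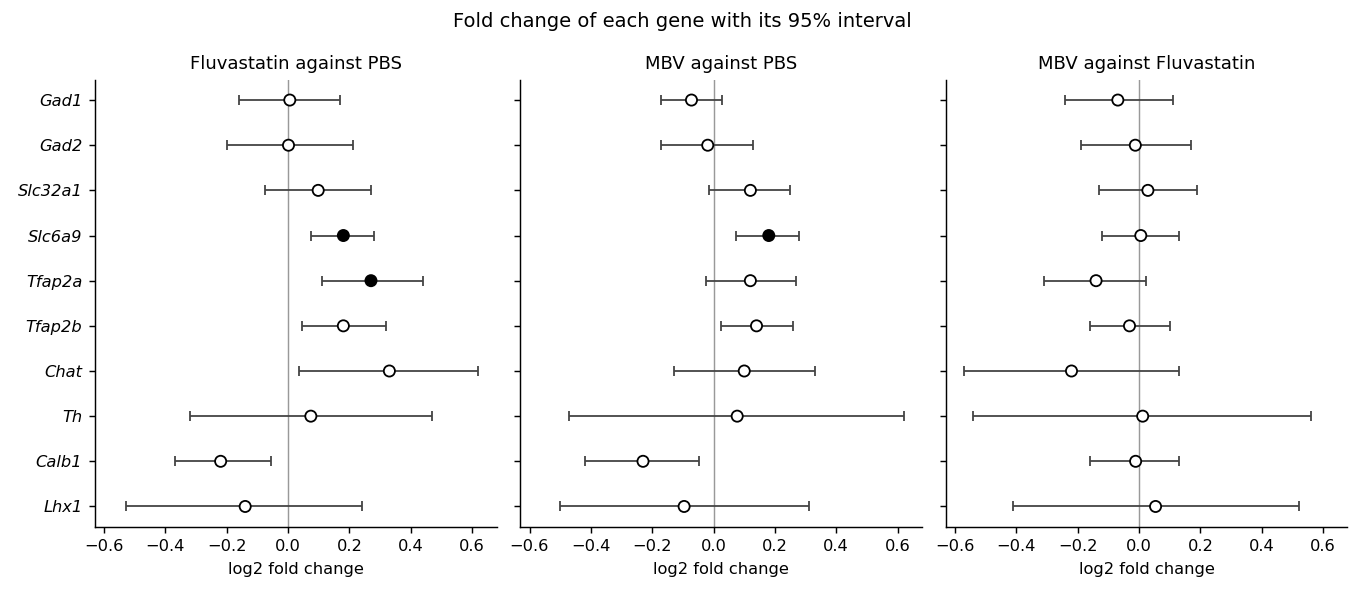
Log2 fold change of each gene (horizontal axis) with its 95% interval in the 3 comparisons, 1 panel each; filled points passed an FDR of 0.05 and open points did not. Slc6a9 and Tfap2a are filled for fluvastatin and Slc6a9 for MBV, and no point is filled between MBV and fluvastatin.

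Chat and Th mark 2 small subsets of amacrine cells. Chat (14:32130160-32187946, minus strand) encodes choline acetyltransferase, which makes acetylcholine in starburst amacrine cells. It had 11.4, 10.8 and 11.2 CPM with PBS, 11.5, 17.3 and 13.3 CPM with fluvastatin, and 10.9, 11.3 and 14.0 CPM with MBV. The fluvastatin libraries lay just above those of PBS, a separation that scaling by total counts removed. The log2 fold change was 0.33 with fluvastatin (SE 0.133, interval 0.036 to 0.62, edgeR FDR 0.111) and 0.1 with MBV (SE 0.102, edgeR FDR 0.498). Single libraries bore on the fluvastatin value in both directions. Over the fits without 1 library it ran from 0.15 to 0.46, with edgeR FDRs of 0.00928 to 0.377. The value of 0.46 and the FDR of 0.00928 came without fluvastatin replicate 1.

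Th (7:142446489-142484865, minus strand) encodes tyrosine hydroxylase, the first enzyme of dopamine synthesis, and is the marker of dopaminergic amacrine cells. With 40 to 67 counts a library, Th was the least counted of the members. Its levels were 2.18, 1.91 and 1.94 CPM with PBS, 2.31, 2.06 and 1.99 CPM with fluvastatin, and 1.46, 2.28 and 2.69 CPM with MBV. The MBV libraries spanned all the others, with a coefficient of variation of 29.2%. The log2 fold change was 0.074 with fluvastatin (interval -0.32 to 0.47, edgeR FDR 0.809) and 0.077 with MBV (interval -0.47 to 0.62, edgeR FDR 0.844). The MBV interval leaves changes of 0.722 to 1.54 fold.

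Calb1 and Lhx1 are the members that mark horizontal cells most closely. Calb1 (4:15881264-15908064, plus strand) encodes the calcium-binding protein calbindin, strong in horizontal cells and present in some amacrine cells and RGCs, and Lhx1 (11:84409110-84416361, minus strand) encodes a LIM homeobox factor of horizontal cells. Calb1 had 58.0, 54.9 and 47.7 CPM with PBS, 47.1, 46.3 and 45.1 CPM with fluvastatin, and 48.7, 46.8 and 42.0 CPM with MBV. The fluvastatin libraries all lay under the PBS libraries, closely for PBS replicate 3, while the highest MBV library overlapped the lowest PBS library. Its log2 fold change of -0.22 with fluvastatin (SE 0.0718, interval -0.37 to -0.056, edgeR FDR 0.0603) and of -0.23 with MBV (SE 0.0836, interval -0.42 to -0.046, edgeR FDR 0.0686) missed the threshold. Without PBS replicate 3 the log2 fold changes were -0.29 (FDR 0.0111) and -0.31 (FDR 0.0204). Over all fits without 1 library they ran from -0.29 to -0.15 with fluvastatin, with edgeR FDRs of 0.0111 to 0.246. With MBV they ran from -0.31 to -0.18, with edgeR FDRs of 0.0204 to 0.242. Among other settings, Calb1 also passed without fluvastatin replicate 1 (FDR 0.0448) and, for MBV, in 1 fit of all 9 libraries (FDR 0.0469).

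Lhx1 had 8.16, 6.58 and 6.08 CPM with PBS, 6.71, 7.44 and 4.71 CPM with fluvastatin, and 8.22, 5.98 and 5.35 CPM with MBV. The groups overlapped throughout, and the coefficient of variation was 15.6% to 23.2% in each group. Its log2 fold change was -0.14 with fluvastatin (interval -0.53 to 0.24, edgeR FDR 0.601) and -0.096 with MBV (interval -0.5 to 0.31, edgeR FDR 0.723). The opposite-strand RNA Lhx1os shares 1661 exon bases with Lhx1 and has no row in the tables used. Antisense long non-coding RNAs without a row also share 73 to 697 exon bases each with Gad1, Slc32a1, Tfap2a, Tfap2b, Chat and Th, as does another with Slc6a9. The same doubt on strand holds for Lhx1 and these genes, and its extent was not tested.

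Counted over the 10 genes, the libraries of fluvastatin and PBS did not overlap for 4 members, Slc6a9, Tfap2a and Chat on the higher and Calb1 on the lower side, where 36.6% of all genes tested did not overlap. With MBV the same held for 2 members, Slc6a9 and Tfap2b, both higher, where 41.3% of all genes did not overlap. When scaled by total counts alone, 2 members higher and 1 lower did not overlap with fluvastatin, and 4 did not with MBV (Slc32a1, Slc6a9, Tfap2a and Tfap2b, all higher). Between MBV and fluvastatin all 10 overlapped, where 16.4% of all genes did not. The libraries of a group also moved together across members. PBS replicate 2 was the lowest of its group for 7 of 10 members and PBS replicate 1 the highest for 7, fluvastatin replicate 1 was the lowest for 6 and replicate 2 the highest for 7, and MBV replicate 1 was the lowest for 7. The summed level of the 10 genes was 907 to 985 CPM with PBS, 938 to 1090 CPM with fluvastatin and 972 to 1020 CPM with MBV, and so overlapped between groups.

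Levels of different genes were compared per kilobase of merged GENCODE exons, since longer transcripts give more reads. In the PBS libraries Tfap2b was the highest at 35.2 ± 2.47 CPM per kb (SD, n = 3). It was followed by Slc6a9 at 29.8 ± 0.554, Gad1 at 24.1 ± 1.04, Slc32a1 at 14.8 ± 1.13, Tfap2a at 12.8 ± 0.944, Gad2 at 12.2 ± 1.2 and Calb1 at 7.55 ± 0.746 CPM per kb. Chat at 1.8 ± 0.054 and Lhx1 at 1.58 ± 0.247 CPM per kb were far under these, and Th was the lowest at 0.282 ± 0.0206 CPM per kb. The order of the means was the same in all 3 groups. Neighbours whose libraries overlapped were Tfap2a and Gad2 with PBS, Slc32a1 and Tfap2a with fluvastatin, and Chat and Lhx1 with PBS and with MBV, so these pairs cannot be ordered there. The genes of GABA and glycine neurons at large thus stood above those of the starburst and dopaminergic subsets in every library.

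**Figure D3:**
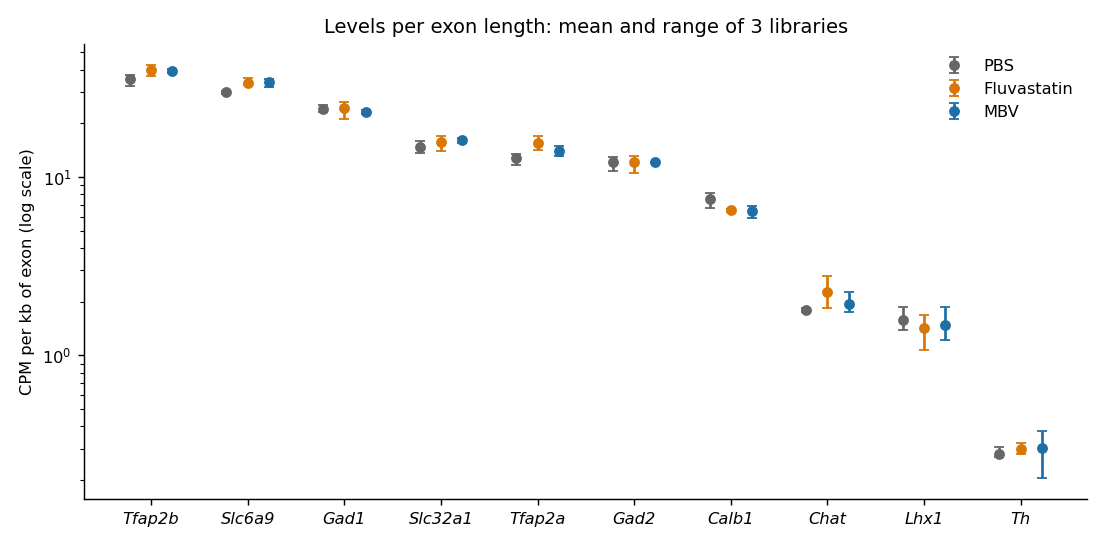
Mean level of each gene per kilobase of exon (vertical axis, CPM per kb, log scale) in the 3 groups; points are means and bars run from the lowest to the highest of 3 libraries. The genes are ordered by their PBS mean, from Tfap2b at 35.2 to Th at 0.282 CPM per kb, and the groups of a gene lie close to each other.

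A further 50 genes of these cells were set beside the members in 6 lists. With fluvastatin 10 were called higher and 1 lower, and with MBV 7 higher and 2 lower, beside the shares of all genes given above. The median log2 fold change of the 50 genes was 0.055 and 0.057. Between MBV and fluvastatin edgeR called 0 of 50. Leaving out fluvastatin replicate 2, PBS replicate 1 or PBS replicate 2 lowered the fluvastatin count to 5, 4 and 6, and leaving out MBV replicate 1, PBS replicate 2 or PBS replicate 3 lowered the MBV count to 5 each. The counts rose to 16 without fluvastatin replicate 1 and to 13 without MBV replicate 3, and dividing the test statistics by their inflation left 0 of 50 in both.

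Among genes of amacrine subtypes, neuropeptides and other markers of small amacrine subsets, 4 of 13 were called higher with fluvastatin and 4 of 13 with MBV. None was called lower. Of all genes tested, 19.6% were called with fluvastatin and 26.1% with MBV, higher or lower. Those called higher were 1761 of 18818 with fluvastatin and 2271 of 18897 with MBV, smaller shares than 4 of 13. Counted in either direction, the MBV count here and the counts of the other lists below lie near or under the shares of all genes. Pvalb encodes the calcium-binding protein parvalbumin, found in RGCs and some amacrine cells, so its level is not a reading of amacrine cells alone. Pvalb had 2.63, 1.94 and 2.85 CPM with PBS, 3.91, 5.83 and 6.87 CPM with fluvastatin, and 4.42, 6.67 and 4.32 CPM with MBV. All treated libraries were above PBS, by 2.24-fold with fluvastatin (log2 fold change 1.16, SE 0.22, edgeR FDR 0.00572) and 2.06-fold with MBV (1.04, SE 0.218, edgeR FDR 0.00844). Npy, the gene of neuropeptide Y, had 5.82, 5.25 and 5.66 CPM with PBS, 8.03, 10.7 and 9.84 CPM with fluvastatin, and 12.2, 11.3 and 9.45 CPM with MBV. It rose 1.7-fold with fluvastatin (log2 fold change 0.77, SE 0.123, edgeR FDR 0.00274) and 1.96-fold with MBV (0.97, SE 0.116, edgeR FDR 0.000814). Nos1, which encodes the neuronal nitric oxide synthase of a sparse amacrine type, had 16.6 to 17.8 CPM with PBS, 22.3 to 28.1 CPM with fluvastatin and 22.1 to 26.3 CPM with MBV. Its log2 fold changes were 0.5 (edgeR FDR 0.00488) and 0.48 (edgeR FDR 0.00247). Sst, the somatostatin gene, was called with fluvastatin alone (log2 fold change 0.87, edgeR FDR 0.0307), not in 1 fit of all 9 libraries (FDR 0.0512), and its value with MBV was alike (0.84, edgeR FDR 0.0591) and the difference between the agents was -0.027 (interval -0.66 to 0.61). Ppp1r17, a marker of an amacrine type that uses neither GABA nor glycine, was called with MBV (0.31, edgeR FDR 0.0286) and had 0.06 with fluvastatin, and MBV against fluvastatin gave 0.26 (interval 0.062 to 0.45, edgeR FDR 0.37). Calb2, the calretinin gene and the most counted of the list, had 134 to 151 CPM with PBS, 136 to 190 CPM with fluvastatin and 140 to 160 CPM with MBV, and passed in neither (edgeR FDR 0.145 and 0.465).

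Of the 12 amacrine transcription factor genes, 2 rose and 1 fell with fluvastatin, and 1 rose and 1 fell with MBV. Among these, Meis2, a homeobox gene of GABAergic amacrine cells, had 136, 138 and 137 CPM with PBS, 155, 176 and 162 CPM with fluvastatin, and 157, 166 and 162 CPM with MBV. Its log2 fold change was 0.26 with fluvastatin (SE 0.0516, edgeR FDR 0.00682) and 0.23 with MBV (SE 0.0404, edgeR FDR 0.00396). Tbx2, a T-box gene of several retinal cell types, fell from 80.3 to 82.9 CPM with PBS to 68.5 to 71.7 CPM with fluvastatin (log2 fold change -0.21, edgeR FDR 0.0107) and 63.1 to 70.3 CPM with MBV (-0.3, edgeR FDR 0.00345). Pax6, a factor of all amacrine and horizontal cells and of RGCs and the most counted of the list, had 269 to 290 CPM with PBS, 286 to 334 CPM with fluvastatin and 282 to 300 CPM with MBV (edgeR FDR 0.0997 and 0.583).

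In the list of GABA and glycine handling, 1 of 7 rose with fluvastatin and 1 rose and 1 fell with MBV. Glra1, a glycine receptor subunit, had 30.6, 31.9 and 29.5 CPM with PBS, 38.2, 36.4 and 34.2 CPM with fluvastatin, and 38.2, 43.3 and 32.4 CPM with MBV. It was called in both (log2 fold change 0.24, edgeR FDR 0.0225, and 0.3, edgeR FDR 0.0483), the first not in 1 fit of all 9 libraries (FDR 0.0869). Aldh5a1, an enzyme of GABA breakdown, was called lower with MBV (log2 fold change -0.18, edgeR FDR 0.0463) and had -0.17 with fluvastatin (edgeR FDR 0.116). The Aldh5a1 call held in 1 of 6 fits without 1 library and in 1 of 6 other settings, the stricter filter, and was lost with total-count scaling (FDR 0.136).

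Of 5 genes of starburst cells and acetylcholine, only Slc18a3 was called, with fluvastatin. It encodes the vesicular acetylcholine transporter and lies within the Chat gene on the same strand, sharing no exon base with it. It had 8.77, 6.92 and 9.46 CPM with PBS, 9.6, 12.1 and 12.6 CPM with fluvastatin, and 10.2, 8.82 and 10.9 CPM with MBV. Its log2 fold change was 0.45 with fluvastatin (SE 0.137, edgeR FDR 0.0433) and 0.24 with MBV (SE 0.13, edgeR FDR 0.211). Ache, the acetylcholinesterase gene and the most counted of the list, had log2 fold changes of 0.045 and -0.024. Of 5 dopamine genes 0 were called, and Slc18a2, the vesicular monoamine transporter gene with the most counts, had -0.18 with fluvastatin (edgeR FDR 0.185) and -0.064 with MBV (edgeR FDR 0.643). Of 8 horizontal cell genes, 2 rose with fluvastatin and 1 with MBV. Septin4, a cytoskeletal GTPase gene, was called in both (log2 fold change 0.21, edgeR FDR 0.045, and 0.19, edgeR FDR 0.0458), and Slc4a3, an anion exchanger gene, with fluvastatin (0.16, edgeR FDR 0.0303). The call of Slc4a3 held in 1 of 6 fits without 1 library and was lost in 1 fit of all 9 libraries (FDR 0.182). Prox1, a homeobox gene of horizontal, AII amacrine and other retinal cells, was the most counted of the list. It had 359 to 435 CPM with PBS, 359 to 423 CPM with fluvastatin and 363 to 437 CPM with MBV. Its log2 fold changes were -0.062 and 0.0037.

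**Figure D4:**
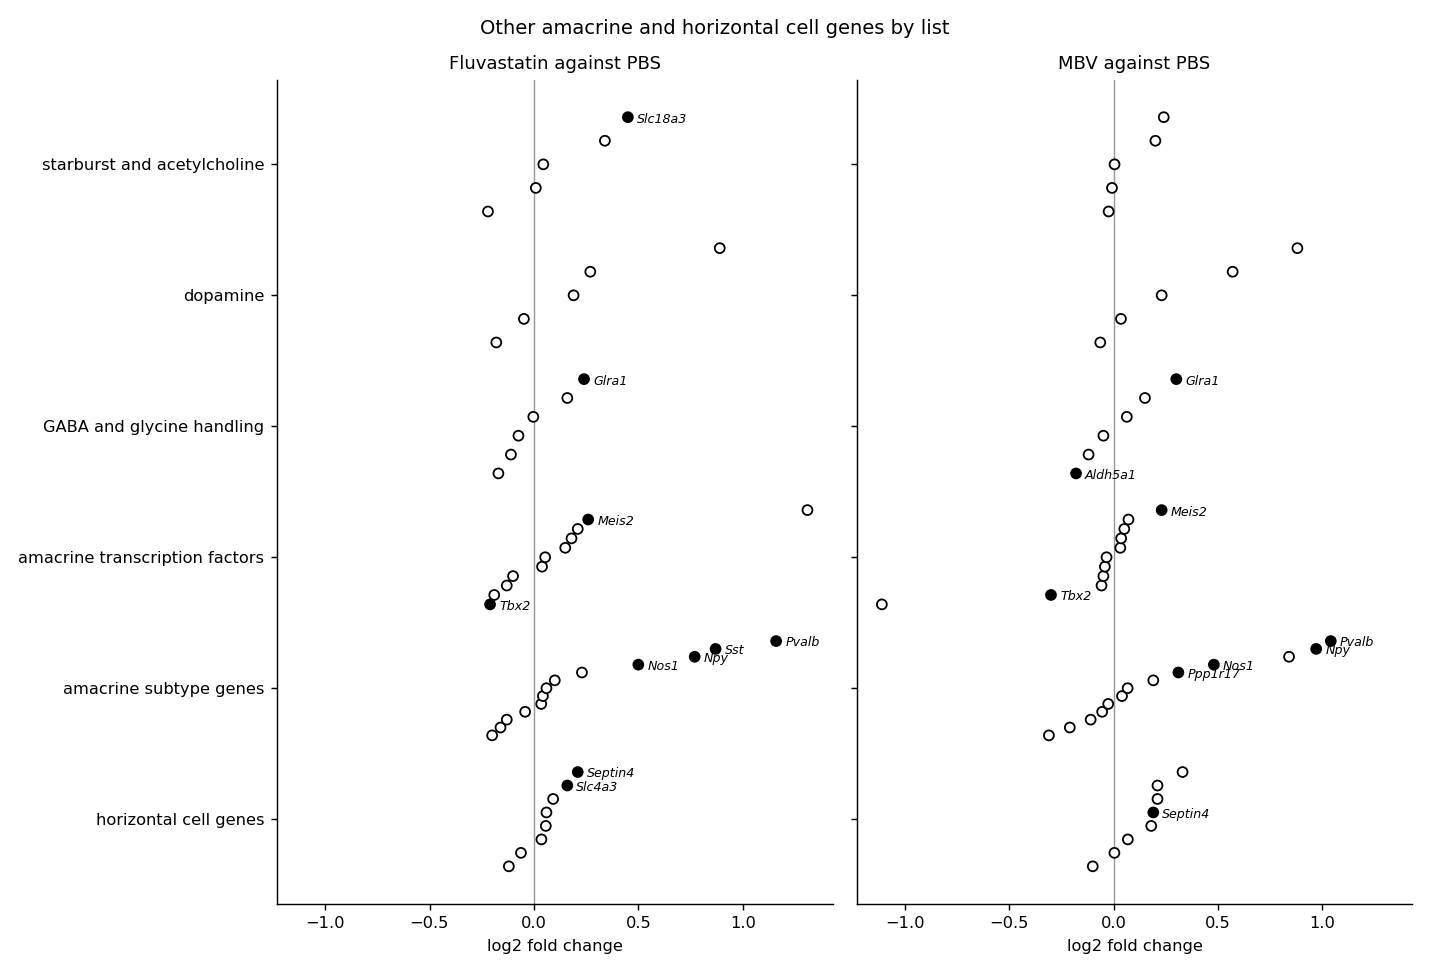
Log2 fold change against PBS (horizontal axis) of the other amacrine and horizontal cell genes reported here, 1 point a gene, by list, for fluvastatin and MBV; filled, named points passed an FDR of 0.05. Most points lie near 0. The filled points farthest right, all amacrine subtype genes, are Pvalb, Npy and Nos1 in both panels and Sst in the fluvastatin panel alone.

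Some markers of other retinal and neighbouring cells were called against PBS, and their part in the values above was not tested. Of all genes tested, 19.6% were called with fluvastatin and 26.1% with MBV. The summed level of 8 Müller glia markers was 3860 to 4490 CPM with PBS, 2260 to 3570 CPM with fluvastatin (6 of 8 called lower) and 2130 to 3540 CPM with MBV (3 of 8 lower). The 8 rod markers summed to 44600 to 48200 CPM with PBS, 39700 to 43000 CPM with fluvastatin (1 called higher and 2 lower) and 30900 to 43600 CPM with MBV (5 of 8 lower). The 11 RGC markers summed to 613 to 753 CPM with PBS and 694 to 938 CPM with fluvastatin (3 of 11 higher), overlapping, and to 652 to 801 CPM with MBV (1 of 11 higher). All 11 had a log2 fold change above 0 with fluvastatin (median 0.29), as did 6 of 11 with MBV (median 0.11). Several of the genes named above, such as Pvalb, Calb1, Calb2 and Pax6, are also expressed by RGCs. Lens markers were at 2.05 to 6.66 CPM with PBS and 2.97 to 20.7 CPM with fluvastatin (1 of 8 lower), and at 58.2 to 154 CPM with MBV (7 of 8 higher), in every MBV library. Of bipolar cell markers 2 of 9 were lower in each comparison, and of pigment cell markers 2 of 8 were higher and 4 lower with fluvastatin and 1 higher and 4 lower with MBV. Of 7 cone markers 1 was higher with fluvastatin, and 1 higher and 2 lower with MBV. Of 6 microglia markers 1 was lower in each, and of 6 endothelial markers 1 was higher with MBV. The counts of bipolar, microglia and endothelial markers lie near or under the shares of all genes. Of 6 monocyte markers 0 were called by edgeR in either comparison, but all 6 had a log2 fold change above 0 with MBV (median 1.8), as did 2 of 6 with fluvastatin (median -0.089). Their summed level was 5.8 to 10.6 CPM with PBS, 7 to 8.11 CPM with fluvastatin, and 11.9, 8.5 and 29.5 CPM in the MBV libraries, of which replicate 3 stood apart.

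**Figure D5:**
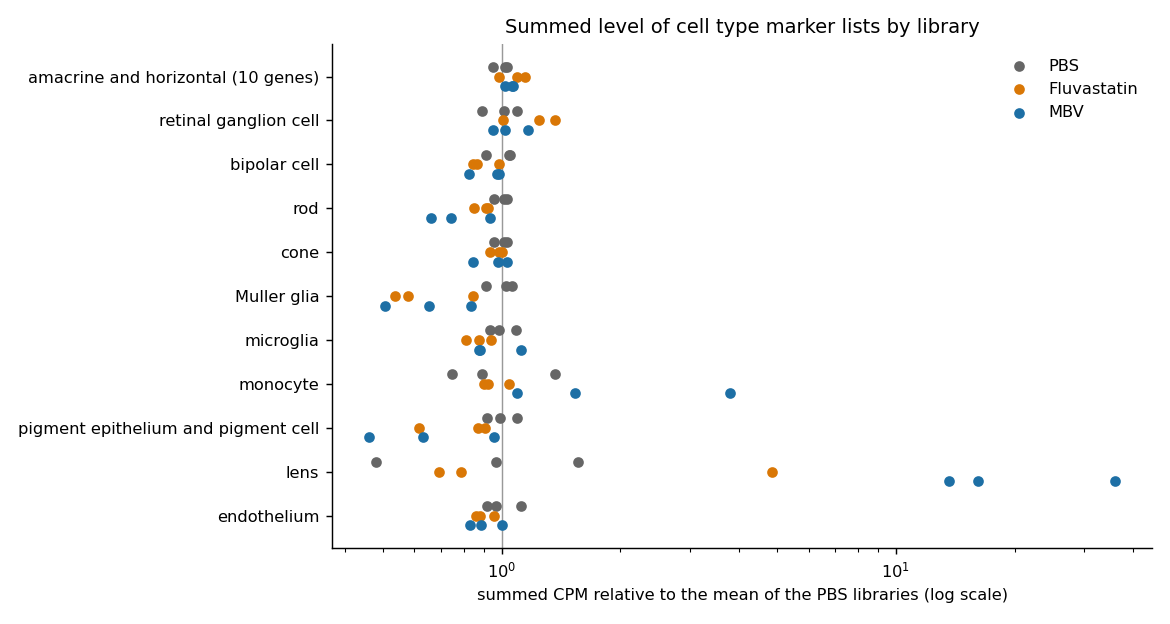
Summed CPM of each marker list relative to the mean of the PBS libraries (horizontal axis, log scale), 1 point a library, coloured by group. The 10 amacrine and horizontal cell genes keep within a narrow band around the PBS mean in all groups, while Müller glia and rod lists lie lower in treated libraries and the lens list lies far to the right with MBV.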

How the data were processed

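Whole-retina RNA was sequenced as 75-base paired-end reads. In CLC Genomics Workbench the authors mapped these to GRCm39 and counted them per gene. The 4 deposited tables hold raw counts, not normalized, beside the authors' fold changes and p-values, which were not used. The 6 count columns of the combined-treatment table name no library and were left out, so that the combined treatment and 2 effects that needed it were not analysed. The 9 libraries with names were identical wherever a table repeated them.

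Any gene counted at least once in the 6 libraries of a comparison was tested with edgeR 4.0.16 in R 4.3.3 (TMM, quasi-likelihood, 2 groups alone, FDR under 0.05), with a procedure tested on simulated data. Levels are CPM with TMM factors over 9 libraries. The coefficient of variation between replicates was 7.78% to 10.1% (common dispersion). The study calls its replicates biological, but whether each library is 1 animal was not given in the sources used here. Positions are those deposited, and exons, lengths and sequences are from GENCODE mouse release 39. DESeq2 1.42.0, other scalings, a stricter filter, a replicate block, 1 fit of all libraries, division by inflation and leaving out each library were the alternatives. All 10 members are named and, of 6 lists of related genes, those past the FDR and the most counted gene of each, except that results of some genes of these lists, counted in the totals, are not reported here. Members and lists were chosen with earlier results of these data known, and the 2 genes overlapping Slc6a9 after the overlap was seen.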

Additional observations from a re-analysis of the deposited data

How the results depend on the processing

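The 2 members called with fluvastatin became 0 when test statistics were divided by their inflation, and 0 to 5 when 1 library was left out (5 without fluvastatin replicate 1, 1 without fluvastatin replicate 3, and 0 without fluvastatin replicate 2, PBS replicate 1 or PBS replicate 2). The 1 member called with MBV became 2 with total counts as the scaling (adding Tfap2b), 2 in 1 fit of all libraries (adding Calb1), 0 under division by inflation, and 0 to 1 with 1 library left out (0 without MBV replicate 2, PBS replicate 1 or PBS replicate 2). Between MBV and fluvastatin the count stayed 0 in all settings run. Values near 0 changed sign, none of them called: Gad2 with fluvastatin to -0.0036 (total counts) and -0.0013 (replicate block), Gad1 with fluvastatin to -0.00045 (replicate block), Gad2 with MBV to 0.014 (total counts), and, between MBV and fluvastatin, Gad2 to 0.017 and Calb1 to 0.02 (total counts) and Th to -0.016 (replicate block).

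Leaving out 1 library also turned the sign of some values, none of them called. With fluvastatin the log2 fold changes then ran from -0.054 to 0.1 for Gad1, from -0.077 to 0.1 for Gad2 and from -0.28 to 0.025 for Lhx1. With MBV they ran from -0.094 to 0.033 for Gad2, from -0.016 to 0.17 for Chat, from -0.13 to 0.3 for Th and from -0.31 to 0.034 for Lhx1. Between MBV and fluvastatin they ran from -0.11 to 0.046 for Gad2, from -0.053 to 0.078 for Slc32a1, from -0.027 to 0.049 for Slc6a9, from -0.084 to 0.018 for Tfap2b, from -0.19 to 0.23 for Th, from -0.058 to 0.049 for Calb1 and from -0.15 to 0.19 for Lhx1. Of the related genes called, Meis2, Pvalb, Nos1 and Npy passed in all 6 fits without 1 library in both comparisons with PBS, and Tbx2 in 6 with MBV and 5 with fluvastatin. Slc18a3, Glra1, Sst, Septin4, Slc4a3, Aldh5a1 and Ppp1r17 passed in 1 to 3 of 6.

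Samples with the same replicate number did not deviate together (correlations of -0.37 to 0.16, across genes), so the numbers were not taken to pair the samples. The fit with the replicate block called 3 members with fluvastatin (adding Calb1, FDR 0.0404) and 1 with MBV, where Calb1 (FDR 0.0252) took the place of Slc6a9 (FDR 0.0548). Of the related genes, the block lost Slc4a3 with fluvastatin (FDR 0.0524) and Aldh5a1 (FDR 0.107) and Septin4 (FDR 0.0597) with MBV.

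Over all genes, the 3687 calls with fluvastatin became 2113 without fluvastatin replicate 2, 1726 without PBS replicate 1 and 0 under division by inflation, and the 4937 with MBV became 2711 without PBS replicate 1 and 0 under division by inflation. The 11 between MBV and fluvastatin became 122 with DESeq2, 38 in 1 fit of all libraries, 5 with the stricter filter, 0 with the block or division by inflation, and 0 to 197 with 1 library left out. The planned comparisons with the combined treatment were not run. Th and Lhx1, with the widest intervals, are those for which spread and depth limit the comparison most.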

Other observations

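A pair of the related genes had large values without passing the test and were looked at after their values were seen. Ddc, the gene of the second enzyme of dopamine synthesis, had 9 to 12 counts a library with PBS, 12 to 20 with fluvastatin and 13 to 22 with MBV, and in CPM both treated groups lay above the PBS range (log2 fold change 0.89, edgeR FDR 0.105, and 0.88, edgeR FDR 0.0864). Ptf1a, a factor of amacrine and horizontal cell development, had 1 count in each PBS library, 1 to 4 with fluvastatin and 0 to 1 with MBV, which is too few for a fold change.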
